A study of Mus musculus with 8 samples.

Results

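Of the 57124 consensus regions of open chromatin in medullary thymic epithelial cells (mTECs), 55917 lay on the 19 autosomes, and 4678 of these had their centre in an annotated exon outside every promoter window. That is 8.37% of the autosomal regions (95% Wilson interval 8.14 to 8.60). A promoter window covered the 1000 bases before and the 100 bases after a transcription start of the GENCODE M21 basic annotation on mm10, and only positions were used to choose the regions. By the exon that held the centre, 2363 regions lay in a first exon within 1 kb downstream of its start, 934 in an internal exon, 1182 in a last exon and 199 in a first exon beyond 1 kb. The first of these classes thus held 50.5% of the exonic regions (49.1 to 51.9), the internal exons 20% (18.8 to 21.1), the last exons 25.3% (24.0 to 26.5) and the far parts of first exons 4.25% (3.71 to 4.87).

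The regions come from ATAC-seq, an assay in which accessible DNA is cut and tagged with sequencing adapters by Tn5 transposase. The cells were mTECs sorted from the thymus of wild-type BL6N6 mice between 4 and 6 weeks of age. They were sorted by Tspan8, a tetraspanin and tissue-restricted self-antigen, and by MHC class II, a maturation marker, into Tspan8pos MHCIIhi, Tspan8pos MHCIIlo, Tspan8neg MHCIIhi and Tspan8neg MHCIIlo cells, with 2 biological replicates in each of the 4 groups. All 8 samples share the wild-type genotype. The peaks were merged into one set of regions, so that a region cannot be traced to a group here, and how strongly each region was open in each group is not analysed here. Each value below therefore describes position, width or sequence over regions. Regions are not replicates of the experiment, no test between groups was possible, and the intervals cover counting over regions only.

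mTECs express a wide range of tissue-restricted genes, which exposes developing T cells to self-peptides, and Aire and Fezf2 are known regulators of this expression. Open chromatin in most cell types is found at gene starts, where polymerase and general factors assemble, and at distal enhancers. Exons are a minor part of it, and they carry both codons and, in places, binding sites of transcription factors. First exons of many genes lie in CpG islands, stretches of GC-rich DNA that kept their CpG dinucleotides and that often extend past the start into the gene.

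As examples of such exonic DNA, and not as typical members of the set, 6 regions are given in full. They are the 2 widest of at most 300 bases that lay wholly in coding sequence and in no UTR, for internal exons (191 candidates), last exons (110 candidates) and first exons within 1 kb of the start (108 candidates). Each is written 5′ to 3′ on the coding strand of its gene, from the GRCm38 reference, with every CpG in capitals. The Ryr1 region (chr7:29019750-29020037, minus strand) lay in exon 91 of 106, which is 792 bases long, and held 39 CpGs in 288 bases. Ryr1 encodes the calcium release channel of skeletal muscle, and the region was 105122 bases downstream of the start of its transcript. The Zic1 region (chr9:91364483-91364768, minus strand) lay in exon 2 of 4 of this zinc-finger transcription factor gene of the developing nervous system and held 33 CpGs. In last exons, the Dact3 region (chr7:16885280-16885575, plus strand) was in exon 4 of 4, held 58 CpGs and reached a GC content of 82.1%. The Chst2 region (chr9:95405579-95405864, minus strand) was in exon 2 of 2 of this carbohydrate sulfotransferase gene and held 19 CpGs, the fewest of the 6. In first exons, the Calhm6 region (chr10:34127501-34127798, minus strand) lay 335 bases past the start and held 31 CpGs. The Ascl5 region (chr1:136050946-136051241, plus strand) lay 289 bases past the start of this single-exon gene of the basic helix-loop-helix family and held 35 CpGs.
Ryr1: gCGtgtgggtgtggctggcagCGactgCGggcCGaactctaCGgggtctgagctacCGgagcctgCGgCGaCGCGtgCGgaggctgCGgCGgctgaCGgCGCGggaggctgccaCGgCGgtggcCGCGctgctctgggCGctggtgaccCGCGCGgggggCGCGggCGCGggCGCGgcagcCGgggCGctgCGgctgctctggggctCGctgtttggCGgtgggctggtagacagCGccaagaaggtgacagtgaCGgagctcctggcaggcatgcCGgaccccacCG
Zic1: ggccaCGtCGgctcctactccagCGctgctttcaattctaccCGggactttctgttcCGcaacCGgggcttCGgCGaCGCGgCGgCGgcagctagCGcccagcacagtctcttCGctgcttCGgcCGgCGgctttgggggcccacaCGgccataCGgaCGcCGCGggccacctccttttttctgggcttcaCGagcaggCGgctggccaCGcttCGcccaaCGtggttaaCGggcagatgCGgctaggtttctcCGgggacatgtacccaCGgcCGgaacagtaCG
Dact3: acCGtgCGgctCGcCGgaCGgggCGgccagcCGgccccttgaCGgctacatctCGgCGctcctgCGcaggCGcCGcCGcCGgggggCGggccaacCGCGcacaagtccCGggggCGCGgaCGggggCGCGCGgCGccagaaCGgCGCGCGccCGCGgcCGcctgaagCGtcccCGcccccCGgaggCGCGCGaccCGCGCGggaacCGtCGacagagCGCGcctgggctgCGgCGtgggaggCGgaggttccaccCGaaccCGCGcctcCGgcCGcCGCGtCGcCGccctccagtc
Chst2: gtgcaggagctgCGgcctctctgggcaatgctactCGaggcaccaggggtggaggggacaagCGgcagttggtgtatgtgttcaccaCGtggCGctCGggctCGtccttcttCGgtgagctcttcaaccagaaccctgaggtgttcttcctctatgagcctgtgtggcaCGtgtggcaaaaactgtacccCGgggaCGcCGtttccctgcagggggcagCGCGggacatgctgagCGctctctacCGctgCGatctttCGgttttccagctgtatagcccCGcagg
Calhm6: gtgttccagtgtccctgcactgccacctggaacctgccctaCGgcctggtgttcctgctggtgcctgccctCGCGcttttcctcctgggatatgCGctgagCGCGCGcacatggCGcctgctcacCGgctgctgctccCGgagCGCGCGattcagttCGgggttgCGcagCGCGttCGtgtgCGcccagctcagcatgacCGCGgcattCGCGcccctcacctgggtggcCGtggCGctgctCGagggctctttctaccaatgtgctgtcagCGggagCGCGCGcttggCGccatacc
Ascl5: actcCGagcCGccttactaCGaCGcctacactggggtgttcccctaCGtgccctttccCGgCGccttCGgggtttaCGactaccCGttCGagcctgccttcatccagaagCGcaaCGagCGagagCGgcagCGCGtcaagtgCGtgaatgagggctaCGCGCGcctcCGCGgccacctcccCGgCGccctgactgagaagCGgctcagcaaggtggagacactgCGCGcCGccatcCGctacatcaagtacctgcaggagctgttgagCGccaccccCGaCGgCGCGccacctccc

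Exonic regions were wide as a set, but this width came from the first exons. The median width was 309 bases over all 4678 (95% interval of the median 296 to 324), against 212 (210 to 214) over all autosomal regions. In first exons within 1 kb it was 545 bases (531 to 561), wider than the 483.5 bases (476 to 491) of promoter regions. In internal exons it was 166 bases (158 to 178) and in last exons 167 (156 to 179), and these intervals held the medians of intron regions, 168 bases, and of intergenic regions, 170 bases. Regions in first exons beyond 1 kb had a median of 209 bases (182 to 233). Of the 558 exonic regions of at least 800 bases, 521 lay in first exons within 1 kb, 18 in internal exons, 16 in last exons and 3 in the far parts of first exons.

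**Figure D1:**
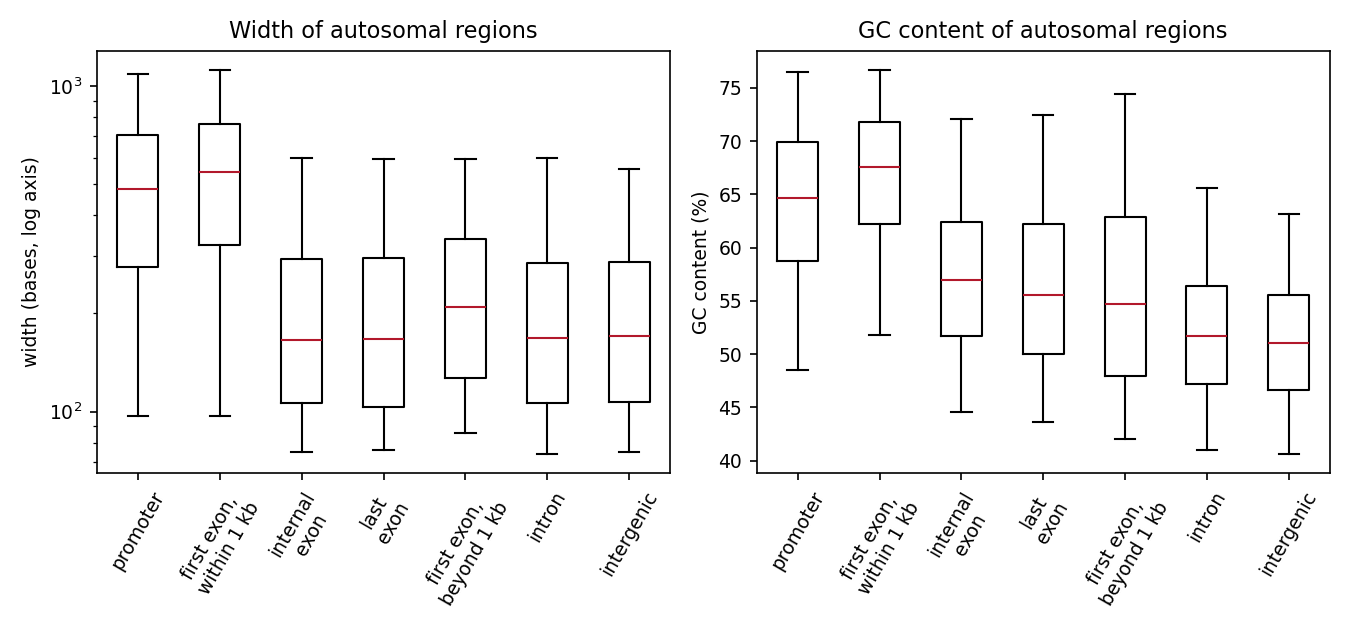
Width in bases (left, log axis) and GC content in percent (right) of autosomal consensus regions by class; the red line is the median, the box the middle 50% of regions and the whiskers the range from the 5th to the 95th percentile. First exons within 1 kb sit with promoters in both panels, while internal and last exons have the widths of introns (medians 166, 167 and 168 bases) and a GC content between promoters and introns.

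Base composition separated the classes in another way. The median GC content was 67.5% (67.1 to 67.9) in first exons within 1 kb and 64.6% (64.5 to 64.8) in promoters. It was 56.9% (56.2 to 57.5) in internal exons and 55.5% (54.9 to 56.1) in last exons, above the 51.7% (51.5 to 51.8) of intron regions and the 51% (50.9 to 51.1) of intergenic regions. CpG dinucleotides followed the same order, with medians of 9.10 per 100 bases in first exons within 1 kb, 7.87 in promoters, 3.16 in internal exons, 2.41 in last exons, 1.44 in introns and 1.40 in intergenic sequence. Internal and last exonic regions thus had the width of distal regions but not their base composition. Over all autosomal bases, open or not, the order held from internal exons down to intergenic sequence. GC content was 50.8% in internal exons, 44.3% in last exons, 42.5% in introns and 40.9% in intergenic sequence. CpGs per 100 bases were 2.51, 1.27, 0.859 and 0.715 in turn. It did not hold above internal exons. GC content was 49.3% in first exons within 1 kb and 46.5% in promoters, both below internal exons. Their CpGs per 100 bases were 2.58 and 2.02. All 6 sequences printed above exceed the median of internal exons in CpGs, with 6.64 per 100 bases in Chst2 and 19.6 in Dact3.

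Over all exonic regions the median GC content was 62.4% (61.9 to 62.9), and for 32.4% of them (31.1 to 33.8) the gene also had a region in a promoter window. For 64.3% (62.9 to 65.7) the gene had some region over one of its starts, which could be the exonic region itself. By part of the transcript, 2046 exonic regions (43.7%, 42.3 to 45.2) had their centre in coding sequence, 1222 (26.1%, 24.9 to 27.4) in a 5′ UTR, 628 (13.4%, 12.5 to 14.4) in a 3′ UTR and 782 (16.7%, 15.7 to 17.8) in an exon of a noncoding transcript. Those of 5′ UTRs were the widest, with a median of 575 bases (555 to 594), and those of 3′ UTRs the narrowest, with 149 bases (134 to 161). Of the regions in coding sequence, 894 were in first exons within 1 kb, 801 in internal exons and 309 in last exons. A protein-coding gene held 83.0% of the exonic regions (81.9 to 84.0), a lincRNA gene 6.28% (5.62 to 7.02) and a pseudogene 2.18% (1.80 to 2.64).

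The class in first exons within 1 kb was in large part the downstream end of open starts. Of its 2363 regions, 1582 (66.9%, 65 to 68.8) covered an annotated start although their centre lay past the promoter window. These were 669 bases wide in the median (652 to 690), and reached 152 bases upstream of the start and 500 bases past it. The other 781 covered no start and had a median width of 206 bases (193 to 229), with a GC content of 65.2% (64.1 to 66.3). The difference in width is largely fixed by this split, since a region centred over 100 bases past a start must be wide to cover it. Only 13.7% (12.3 to 15.1) of regions in this class belonged to a gene that also had a region centred in a promoter window, but 73.1% (71.3 to 74.8) belonged to a gene with some region over one of its starts. In 1569 regions that was the exonic region itself. The edge of the window is arbitrary in this respect: 1980 promoter regions centred 51 to 100 bases past a start had a median width of 512 bases and a GC content of 66.4%, and 799 exonic regions centred 101 to 150 bases past it had 542 bases and 67.4%. At the other limit, the 41 regions in first exons at 901 to 1000 bases had a median width of 165 bases, and the 20 at 1001 to 1100 bases had 298 bases, too few to set a trend.

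Wide regions at starts are shown by the 5 widest of this class. Fbxl17, an F-box gene, had a region of 1860 bases (chr17:63498926-63500785) with a GC content of 76.2% centred in its first coding exon. The Gm11400 pseudogene had 1779 bases at a GC content of 52.7%, Zbtb11, a BTB zinc-finger gene, 1708 bases, B3gnt2, a glycosyltransferase gene, 1651 bases, and Jmy, whose product nucleates actin filaments, 1647 bases. None of these 5 genes had a separate region centred in a promoter window.

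Regions in internal exons lay deep in genes, as did those in last exons. Their centres were a median of 15852 bases downstream of the start of the transcript, against 15448 bases in last exons. The share over 10 kb from any start was 44.2% (41.1 to 47.4) in internal and 38.8% (36.1 to 41.6) in last exons. The centre was in coding sequence in 801 of 934 (85.8%, 83.4 to 87.9). Exon 2 held 229 of them (24.5%, 21.9 to 27.4). Of these regions, 317 (33.9%, 31.0 to 37.0) lay whole within 1 exon, and the others extended past its ends. The gene also had a region in a promoter window for 57.3% (54.1 to 60.4). Under the comprehensive annotation, which adds many partial transcripts, 143 (15.3%, 13.1 to 17.8) fell in a promoter window. A start of that annotation was covered by 87 (9.31%, 7.61 to 11.3), and a start of the basic annotation by 14 (1.50%, 0.895 to 2.50).

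Internal exons of up to 100 bases held the fewest regions per base, but the density did not rise at every step of exon length. The density was 19.9 regions per Mb (exact Poisson interval 15.8 to 24.8) in internal exons of up to 100 bases, 31.8 (27.8 to 36.2) in those of 101 to 150 bases, 35.7 (30.9 to 41.0) in those of 151 to 200 bases, 48.2 (42.4 to 54.5) in those above 200 and up to 500 bases, and 39.7 (34 to 46.1) in those above 500 bases. The internal exons that held a centre had a median length of 188 bases, against 124 bases for the 183601 annotated internal exons. A longer exon offers more positions to a centre, which the density per Mb takes into account.

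The widest internal region, of 3162 bases in Gm21738 on chromosome 14, and the fourth, of 1080 bases in Gm10800 on chromosome 2, were mostly repeat sequence, with 84.5% and 81.4% of their bases soft-masked in the reference. Both had a GC content near 35%, at 34.4% in Gm21738 and 35.2% in Gm10800, below the class median of 56.9%. The other 3 of the 5 widest had little repeat sequence. Gadd45a, a stress-inducible growth arrest gene, had a region of 1188 bases (chr6:67036498-67037685) over exon 2, whose centre was only 160 bases from a start. Gas2l1, which encodes a cytoskeletal linker, had 1101 bases (chr11:5061679-5062779) over exon 5 of 6, and Zfp503 had 1062 bases (chr14:21987514-21988575) in the 5′ UTR part of exon 2. Over all exonic regions, 33 (0.705%, 0.503 to 0.989) were at least 50% soft-masked.

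Last exons are long and end in the 3′ UTR, and their regions fitted inside them. Of the 1182 regions, 1025 (86.7%, 84.7 to 88.5) lay whole within 1 exon. The centre was in a 3′ UTR in 602 (50.9%, 48.1 to 53.8), in coding sequence in 309 (26.1%, 23.7 to 28.7) and in a noncoding exon in 261 (22.1%, 19.8 to 24.5). The median exon length was 2150 bases, and the centre stood a median of 41.2% of the way along the exon. The gene also had a region in a promoter window for 51.8% (48.9 to 54.6). Here only 27 (2.28%, 1.57 to 3.30) fell in a promoter window of the comprehensive annotation. The widest was in the lincRNA gene 2410080I02Rik, with 1416 bases at 484 bases from its start. It was followed by Pigv, a gene of glycosylphosphatidylinositol anchor synthesis, with 1050 bases in the 3′ UTR. Lor, which encodes loricrin, the main protein of the cornified envelope of the epidermis, had 1047 bases (chr3:92080532-92081578) in the coding part of exon 2. The Lor region had a GC content of 73.6% and 10.6 CpGs per 100 bases, and Lor had no region in a promoter window. Dlgap3, a postsynaptic scaffold gene, had 1010 bases and the antisense gene Uckl1os 964 bases.

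The 199 regions in first exons beyond 1 kb were mostly in single-exon transcripts (164, 82.4%, 76.5 to 87.1), and 125 (62.8%, 55.9 to 69.2) were in noncoding exons. Rap2b, a small GTPase gene with its whole coding sequence in 1 exon, had the widest, at 1687 bases (chr3:61363137-61364823). Kcna7, a voltage-gated potassium channel gene, followed with 833 bases, then the antisense gene Gm49774 with 810, the lincRNA gene D030034A15Rik with 792 and Pdcl3, a phosducin-like gene, with 786.

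Exons were denser in open regions than the sequence around them, and the level fell with distance from a start. Exons outside promoters held 52.2 regions per Mb (50.7 to 53.7), against 23.3 (23.1 to 23.5) over the autosomes. First exons within 1 kb held 174 per Mb (167 to 181) and promoters 194 (191 to 198). Internal exons held 35.3 per Mb (33.1 to 37.7), last exons 27.6 (26.1 to 29.2) and far first exons 29.2 (25.3 to 33.6), against 21.7 (21.5 to 22.0) in introns and 13.9 (13.7 to 14.1) in intergenic sequence. By part of the transcript, 5′ UTRs held 499 per Mb (471 to 528), coding sequence 62.3 (59.7 to 65.1), noncoding exons 32.1 (30 to 34.5) and 3′ UTRs 20.9 (19.3 to 22.6), and the interval of 3′ UTRs held the value of introns.

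Within the first 1 kb the exonic density fell steeply. It was 343 per Mb (327 to 360) at 101 to 250 bases from the nearest start, 106 (97.5 to 116) at 251 to 500 bases, and 60.1 (54.2 to 66.5) at 501 to 1000 bases. Introns fell as well, with 208 (191 to 227), 67.4 (61.1 to 74.1) and 46.7 (43.3 to 50.4) per Mb in the same bins. At 1001 to 2500 bases the exonic density was 32.0 (29.1 to 35.2), beside 29.0 (27.7 to 30.3) in introns, and these intervals overlapped. At 2501 to 10000 bases exons held 30.6 per Mb (28.6 to 32.8) and introns 23.3 (22.7 to 23.9), and beyond 50000 bases exons held 23.8 (19.7 to 28.6), introns 13.4 (13.0 to 13.9) and intergenic sequence 6.51 (6.26 to 6.77).

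**Figure D2:**
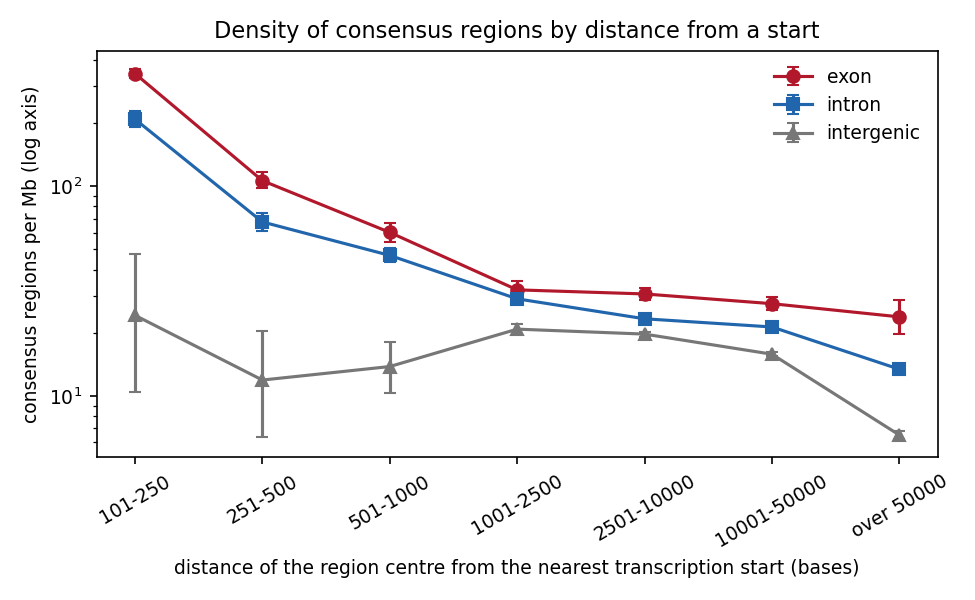
Consensus regions per Mb (log axis) against the distance of the region centre from the nearest annotated start in bases, for exon, intron and intergenic sequence outside promoter windows; bars are exact 95% Poisson intervals. The exonic line falls from 343 to 32.0 per Mb over the first 4 bins and then more slowly, to 23.8 per Mb beyond 50000 bases. The intron line falls from 208 to 29.0 per Mb over the same 4 bins.

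Exons are GC-rich, and density was next compared at equal GC content within 100 bases on either side, using sequence over 1 kb from any start. The excess of exons over introns was then not seen below 65% GC. Where GC content was 55 to 60%, internal exons held 44.6 regions per Mb (38.8 to 51.0) and last exons 65.6 (57.3 to 74.7), against 90.9 (87.8 to 94.1) in introns and 94.7 (91.0 to 98.5) in intergenic sequence. At 60 to 65%, the values were 68.3 (57.1 to 81.1) in internal exons, 112 (92.9 to 133) in last exons, 157 (148 to 168) in introns and 149 (139 to 160) in intergenic sequence. At 50 to 55%, internal exons held 36.4 (31.5 to 41.8), last exons 41.3 (36.5 to 46.6) and introns 49.3 (48.0 to 50.6). In these 3 bins both exon classes were below introns, with intervals that did not overlap.

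At the ends of the range the exon classes differed. At 65% GC or more, last exons held 524 regions per Mb (450 to 607), above introns at 336 (305 to 369), and internal exons held 315 (263 to 374), with an interval that overlapped that of introns. At 40 to 45% internal exons held 14.6 (11.1 to 18.9) and introns 13.2 (12.8 to 13.7), which also overlapped, and last exons held 10.4 (8.30 to 12.8). Below 40% last exons held 1.74 (1.12 to 2.60), below introns. All 4 kinds of sequence rose with GC content, from 1.83 (0.736 to 3.77) in internal exons and 2.83 (2.67 to 3.01) in introns below 40%. Whether the preference of Tn5, PCR or read mapping for base composition took part in this rise was not tested.

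**Figure D3:**
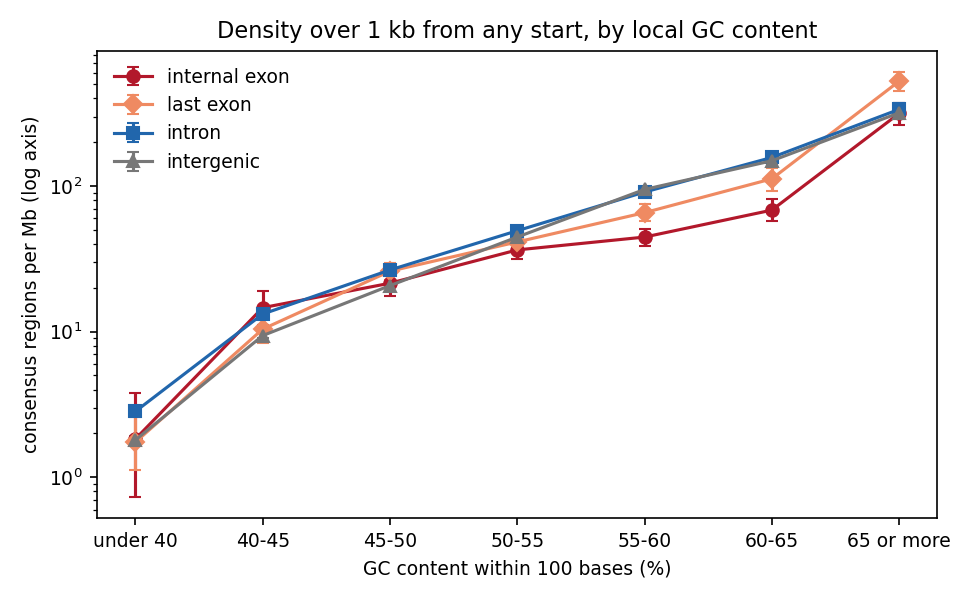
Consensus regions per Mb (log axis) against the GC content in percent within 100 bases on either side, over 1 kb from any start, for internal exons, last exons, introns and intergenic sequence; bars are exact 95% Poisson intervals. Between 50 and 65% GC both exon lines lie below the intron line, and at 65% or more the last exons lie above it.

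Letters of 5 transcription factor motifs were searched on both strands within 100 bases of the centre of each region. ETS factors were represented by CNGGAAG, Krueppel-like factors by GGGNGTGG, POU factors by the octamer ATGCAAAT, AP-1 by TGANTCA and CTCF by its core motif, and one window could count for several motifs. A match is a description of the sequence and not a binding site. AP-1 letters were found in 3.85% of first exons within 1 kb (3.15 to 4.70), 12.3% of internal exons (10.4 to 14.6), 16.6% of last exons (14.6 to 18.8) and 20.1% of far first exons (15.1 to 26.2). Intron regions had them in 23.9% (23.4 to 24.5), intergenic regions in 23.7% (23.1 to 24.3) and all autosomal regions in 18.7% (18.3 to 19). Promoter regions were also low, with AP-1 letters in 5.59% (5.20 to 6.01). In windows of 65 to 75% GC, first exons within 1 kb had them in 2.02% (1.34 to 3.04) and promoters in 1.83% (1.47 to 2.28). AP-1 letters were also rarer in windows over 55% GC than in those of 45 to 55% in each of these classes for which both were counted. In windows of 55 to 65% GC, AP-1 letters were in 8.76% of internal exons (6.34 to 12) and 12.7% of last exons (9.69 to 16.5), against 17.3% of introns (16.2 to 18.4). In windows of 45 to 55% GC they were in 20.3% of internal exons (16.3 to 25), 22.6% of last exons (19.2 to 26.5) and 26.6% of introns (25.8 to 27.4), where the interval of last exons overlapped that of introns and the interval of internal exons lay below it. In windows of 35 to 45% GC they were in 19.1% of internal exons (11.5 to 30), 30.3% of last exons (22.4 to 39.5) and 29.3% of introns (27.9 to 30.7).

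Krueppel-like letters were more frequent in promoter regions than in regions of first exons within 1 kb. They were in 15.2% of promoter regions (14.6 to 15.9) and 8.97% of first exons within 1 kb (7.89 to 10.2), and in 10.7% (10.5 to 11.0) of all autosomal regions. In windows of 65 to 75% GC they were in 18.5% of promoters (17.4 to 19.7) and 9.10% of first exons within 1 kb (7.53 to 11.0), and in windows of 55 to 65% GC in 15.2% (14.1 to 16.4) and 7.77% (5.73 to 10.4), so that the gap was present at equal GC. In windows of 45 to 55% GC, at 9.54% (8.29 to 11) and 8.53% (5.46 to 13.1), the intervals overlapped. The low share at high GC was not particular to first exons. At 65 to 75% GC, internal exons had 10.4% (6.07 to 17.4) and last exons 7.69% (4.45 to 13.0). Introns had 17.6% (15.2 to 20.3) and intergenic regions 21.3% (17.6 to 25.5) in that bin. At 55 to 65% GC, internal exons had 13.7% (10.6 to 17.4), last exons 15.7% (12.3 to 19.7) and introns 17.3% (16.3 to 18.4). ETS letters were in 24.1% of first exons within 1 kb (22.4 to 25.8), 21.7% of internal exons (19.2 to 24.5) and 22.4% of last exons (20.1 to 24.9), against 27.8% of promoters (27.0 to 28.6) and 21.3% (20.9 to 21.6) of all autosomal regions. The internal and last exon intervals hold the value of all regions.

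CTCF core letters, of the factor that sets chromatin boundaries, were in 5.25% of last exons (4.11 to 6.67), 3.53% of internal exons (2.53 to 4.92) and 0.423% of first exons within 1 kb (0.230 to 0.777), beside 3.30% (3.16 to 3.45) of all autosomal regions. Intergenic regions held CTCF core letters in 5.10% (4.78 to 5.44), intron regions in 3.34% (3.11 to 3.59) and promoter regions in 1.04% (0.873 to 1.24). Octamer letters were in 0.423% of first exons within 1 kb (0.230 to 0.777), 0.964% of internal exons (0.508 to 1.82), 1.69% of last exons (1.10 to 2.60) and 2.51% of far first exons (1.08 to 5.75), beside 1.59% (1.49 to 1.70) of all autosomal regions. In windows of 35 to 45% GC they were in 5.18% of all exonic regions (3.05 to 8.66), 2.80% of introns (2.34 to 3.35) and 3.15% of intergenic regions (2.63 to 3.78). The exonic interval rests on 13 of 251 regions and overlaps the other intervals. Promoters had 4.55% (2.82 to 7.26) in that bin. Exonic regions and introns had 1.97% and 1.91% at 45 to 55% GC, 0.613% and 0.577% at 55 to 65%, and 0.0719% and 0.235% at 65 to 75%.

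**Figure D4:**
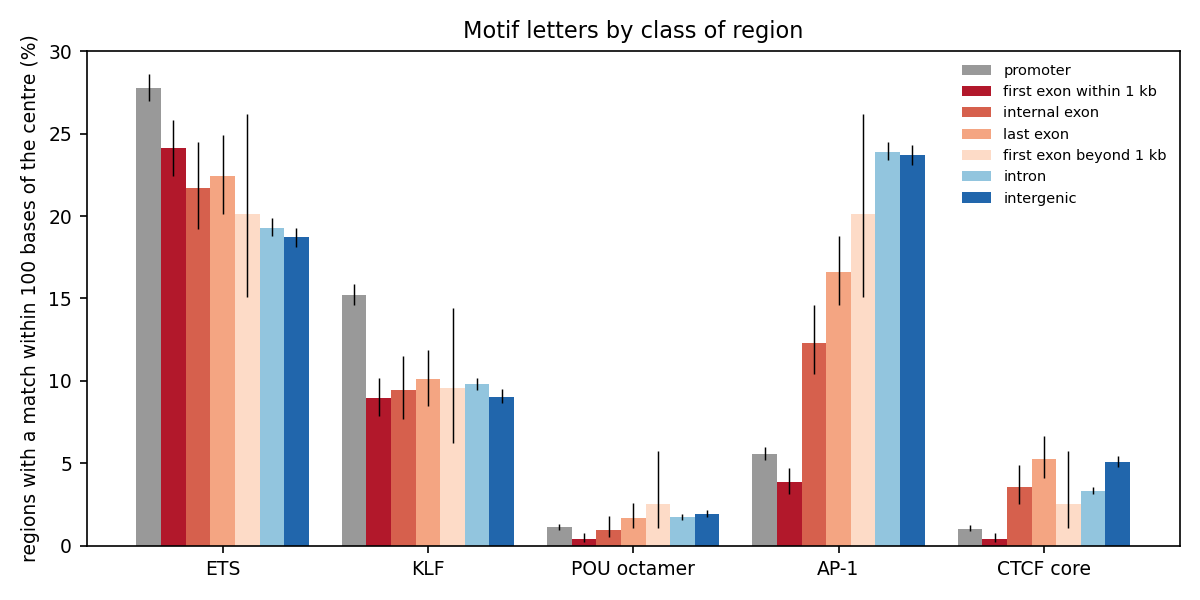
Share of regions in percent that hold the letters of each motif within 100 bases of the centre, by class of region; bars start at 0 and the lines are 95% Wilson intervals. AP-1 letters rise from 3.85% in first exons within 1 kb to 23.9% in introns, and Krueppel-like letters are at 15.2% in promoters and between 8.97 and 10.1% in the 4 exonic classes.

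The exonic regions belonged to 4222 genes, of which 3808 (90.2%) had 1 and 414 (9.81%) had more. Iqgap1, Kcnq1ot1 and Sptbn4 had 4 each, and 36 genes had 3, of which Aak1, an adaptor-associated kinase gene, and the lincRNA gene BC028471 come first by name. Iqgap1, a scaffold of the actin cytoskeleton, had 1 region in its first exon and 3 in internal exons, all coding, from 83 to 776 bases wide. Sptbn4, a spectrin gene, had all 4 in internal coding exons, from 90 to 560 bases wide and with a median GC content of 71.6%. Kcnq1ot1, the long noncoding antisense RNA of an imprinted cluster, had 4 narrow regions of 67 to 186 bases along its single long exon. Of the 20807 protein-coding genes on autosomes, 3475 (16.7%) had an exonic region, and 2262 of those had no region in a promoter window. Such a gene could still have a region over a start that was centred past the window. A promoter region was held by 10327 (49.6%) of the protein-coding genes.

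Among 28 genes of mTECs and thymic epithelium, 7 (25%) had an exonic region, and 21 (75%) had a promoter region, beside 16.7% and 49.6% of all protein-coding genes. Fezf2, the regulator of tissue-restricted genes in mTECs, had a region of 198 bases (chr14:12345631-12345828) in its 5′ UTR, 115 bases past a start, and no region in a promoter window. Epcam, the epithelial adhesion molecule by which the cells were sorted, had 1022 bases at its first exon and 216 bases in an internal coding exon. Tnfrsf11a, which encodes the receptor RANK that drives mTEC maturation, had 163 bases in its last coding exon. Nfkb2, of the noncanonical NF-kB pathway, had 87 bases in an internal coding exon. Spib, an ETS family factor of mature mTECs, had 170 bases in its last coding exon, and Krt1, a keratin of differentiated epidermis, had 217 bases in its own. The invariant chain gene Cd74 had 88 bases in a late exon. Aire, Tspan8, Foxn1, H2-Ab1, Krt5, Krt14 and the other 15 listed genes had none. Presence of a region gives no level of expression, so the purity of the sorted cells was not analysed here.

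Of the 11 autosomal ETS genes listed, 2 (18.2%) had exonic regions, a share close to the 16.7% of all protein-coding genes. Ehf, an epithelial ETS factor, had a pair of regions of 170 and 193 bases in its 3′ UTR, and Ets2 had 899 bases at its first exon. Of 16 Krueppel-like genes, 3 (18.8%) had one, which is also close to that share: Klf1 had 704 bases in an internal coding exon, Klf6 102 bases in its 3′ UTR and Klf14 402 bases in its 5′ UTR. Elf3, Elf5 and Klf4 had none. Of 12 genes of tuft cells, the chemosensory epithelial cells that have a counterpart in the medulla, 3 (25%) had one. Plcb2, the phospholipase of taste signalling, had 3 regions of 82, 89 and 103 bases centred in internal coding exons (chr2:118711354-118712223 in all). Il17rb, the receptor subunit for interleukin 25, had 281 bases in its 3′ UTR and Dclk1, the marker kinase of tuft cells, had 98 bases there. Pou2f3 and Trpm5 had none.

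Gene families differed in how often and where they carried exonic regions, beside the 16.7% of all protein-coding genes. Genes whose symbol starts with Fox, mostly forkhead factors, had them in 15 of 43 (34.9%), and 12 of their 16 regions were in first exons. The widest was 1394 bases at Foxo1, a forkhead factor under insulin control, and Foxc1 had 2 regions of 304 and 179 bases beyond 1 kb in its only exon. Other members included Foxa1, Foxd3 and Foxp2, and Foxred2, which is no forkhead gene. Sox genes had them in 5 of 18 (27.8%), with 1206 bases at Sox4 and 1084 bases at Sox12, followed by Sox13, Sox30 and Sox2. Hox genes had them in 10 of 39 (25.6%), with regions of 75 bases at Hoxb4 to 497 bases at Hoxd8, and the others at Hoxa5, Hoxa10, Hoxb8, Hoxb9, Hoxc9, Hoxd1, Hoxd3 and Hoxd13. Zinc-finger genes named Zfp had them in 58 of 388 (14.9%), with 39 of 63 regions in first exons within 1 kb, and protocadherin genes in 10 of 66 (15.2%). Genes whose symbol starts with Krt, keratins and keratin-associated proteins, had them in 7 of 113 (6.19%), and their 7 regions were all in the coding part of a last exon, at Krt1, Krt36, Krt77, Krt79, Krt81, Krt88 and Krt90. They were 72 to 315 bases wide. A promoter region was held by 16 (14.2%) of the Krt genes, against 261 (67.3%) of the Zfp genes. Family members share sequence and clusters, and these counts carry no test.

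The exonic share ran from 6.81% of regions on chromosome 12 to 9.39% on chromosome 8. Per Mb of annotated exon, promoter windows included, exonic regions ran from 35.9 on chromosome 7 to 58.8 on chromosome 8.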

How the data were processed

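ATAC-seq of mTECs sorted into 4 groups, with 8 samples in all, was aligned by the authors to mm10 with Bowtie2. Alignments were filtered with SAMtools and freed of duplicates with Picard. Broad peaks came from MACS2, and bedtools joined them into one set. The sources used here do not say if each sample had its own peak call or samples were pooled first. Per the file headers, reads over the merged regions were counted with featureCounts 2.0.3. The deposited table gives start, end and width of each region in bases, which were used here. Its 8 columns of counts have names that match no sample label, so they were used in no step. The depth of each sample, and tests between the groups, are therefore not analysed here. Merging, and the removal of multimapping reads, affect width and the number of regions in repeated sequence.

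Regions were placed by their centre in the GENCODE M21 basic annotation, as promoter, otherwise exon, otherwise intron, otherwise intergenic. Where transcripts differed, a first exon within 1 kb of its start took precedence, then an internal exon, a last exon and a first exon beyond 1 kb. A protein-coding gene took precedence over others. Sequence and soft-masking came from the RefSeq GRCm38 assembly, and 0 regions passed the end of a chromosome. Densities divide the number of centres by the length of the sequence in which a centre could fall. Shares have 95% Wilson intervals, medians have order-statistic intervals and densities exact Poisson intervals. The functions were tested on simulated data. Python 3.11.15, numpy 2.4.6, scipy 1.17.1, pandas 2.3.3 and matplotlib 3.10.9 were used.

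Named genes are those of the 5 widest regions of each class, the 5 genes with the most regions (ties in order of name), members of fixed gene lists, and, for the printed sequences, the 2 widest wholly coding regions of at most 300 bases in each of 3 classes. The printed sequences were not taken from chromosome 18. For the Zfp and protocadherin families only counts are printed, for the Fox family only some members are named, and for the Fox, Sox and Hox families values are given for a few members only. Members and lists were chosen with earlier results of these data known.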

Additional observations from a re-analysis of the deposited data

How the results depend on the processing

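6 quantities of the exonic set were recomputed under 6 alternatives, and 7 of the 36 values stayed inside the 95% interval of the reported value. All 6 quantities did so when regions at least 50% soft-masked were left out. With every transcript of the comprehensive annotation, exonic regions were 7.40% of autosomal regions, 41.2% of them were in first exons within 1 kb, the median width was 230 bases, 39.2% were in coding sequence, 46.2% had a promoter region in their gene and the median GC content was 59.2%. With protein-coding transcripts only, these were 7.46%, 54.4%, 376 bases, 51.9%, 34.7% and 64.6%. With the promoter window ended 1000 bases downstream they were 3.86%, 0% by construction, 167 bases, 49.7%, 66.9% and 55.8%, so that the width, the promoter share and the GC content of the whole set depend on where the window ends. With at least 50% of the bases required in exons they were 7.03%, 43.4%, 238 bases, 41.1%, 35.8% and 61.1%. With regions of at least 200 bases they were 10.1%, 66.7%, 507 bases, 18.4% with a promoter region and 65.7% GC, and the coding share stayed inside its interval. The densities, motif shares and gene counts were not recomputed.

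No paired analysis was possible because no column of counts carries a sample label, and for the same reason no replicate was left out. Without counts, a strongly open region and a region at the limit of detection weigh the same, and regions too weak for the peak caller are missing in a way that depends on depth.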
